A study of Mus musculus with 54 samples.

Results

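A set of 1538 ChIP-seq peaks was examined that lie a few kilobases from a peak of another KRAB zinc finger protein (KZFP) and may therefore mark endogenous retroviruses bound at more than 1 place. The members are the peaks of 4 lists (Zfp_MB028, Gm21411, Zfp_MB037 and Zfp_MB026, here called the internal lists) whose summit lies 500 to 8000 bp from a summit of Zfp_MB016, Zfp_MB005 or Zfp_MB036 (here called the LTR lists) on the same chromosome. They make up 1538 of the 5672 chromosome peaks of the 4 internal lists and belong to a series of 42 lists. The members were selected on measured summit positions, through the distance to the LTR lists, so their number and the limits of their distances are a description. Within the lists, sequence, strand, fold enrichment and gene position were not used to pick members. The lists themselves were chosen with earlier results of these data known, and all their peaks had passed a fold cutoff of 10.

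The cells were F9, a line of mouse embryonal carcinoma, in which each KZFP was over-expressed as an HA-tagged protein and pulled down with its DNA through the tag. All positions and sequences are those of the reference genome GRCm39. Whether the genome of the F9 cells carries each provirus described below was not checked. Each KZFP has 1 library, so no value carries an error between repeat experiments, and over-expressed protein may bind sites that the native amount does not. Zfp_MB028, Gm21411, Zfp_MB026 and Zfp_MB016 were made in batch 4, Zfp_MB037 and Zfp_MB036 in batch 5 and Zfp_MB005 in batch 3, each set against the mixed input of its batch. Batches 3 and 5 had no empty vector control of their own. Intervals below are exact Clopper-Pearson 95% intervals of a share, or order-statistic 95% intervals of a median, and cover counting error only.

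KZFPs are DNA-binding repressors that read DNA through an array of zinc fingers and, through their KRAB domain, recruit the corepressor TRIM28 (KAP1), which leads to H3K9 trimethylation. Many of them bind endogenous retroviruses. Intracisternal A particles (IAPs) are a young and still mobile family of such elements in the mouse. A provirus consists of an internal region, which in an intact copy encodes gag, pro and pol, between 2 long terminal repeats (LTRs) that are copies of each other at insertion. Zfp_MB028 and Gm21411 carry the same zinc finger array.

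The sites that carry the finding are shown for a provirus on chromosome 12 (GRCm39, minus strand), which has summits of 6 of the 7 lists, all but Zfp_MB037. Its LTRs are chr12:70964801-70965139 and chr12:70971608-70971946, each 339 bp and 99.7% identical to each other, around an internal region of 6468 bp. It lies between genes, and the annotated gene nearest to its Zfp_MB028 summit, the lncRNA Gm10457, is 5447 bp from that summit. Sequences are read 5′ to 3′ along the provirus, and capitals mark a match to the motif of the KZFP. In the LTR the capitals mark first the overlapping matches of Zfp_MB005 and Zfp_MB016 and then the match of Zfp_MB036, whose motif lies on the opposite strand.
LTR, chr12:70971732-70971789: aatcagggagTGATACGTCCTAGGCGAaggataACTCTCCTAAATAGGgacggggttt
Zfp_MB037 first site, chr12:70971466-70971504: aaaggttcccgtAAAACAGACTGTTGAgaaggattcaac
Zfp_MB037 second site, chr12:70970802-70970840: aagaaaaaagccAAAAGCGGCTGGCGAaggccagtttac
Zfp_MB026 site, chr12:70970410-70970448: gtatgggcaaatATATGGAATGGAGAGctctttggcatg
Zfp_MB028 site, chr12:70966694-70966728: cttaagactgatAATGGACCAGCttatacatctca
Gm21411 site, chr12:70966688-70966726: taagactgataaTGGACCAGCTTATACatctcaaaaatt

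The printed sites follow each other in a fixed order. From the start of the internal region, the motif of Zfp_MB037 begins at positions 116 and 780, that of Zfp_MB026 at 1172, that of Zfp_MB028 at 4892 and that of Gm21411 at 4894. The matches of Zfp_MB028 and Gm21411 cover largely the same bases on opposite strands. The motifs searched, on both strands and without mismatch, were AATGGACCAGC for Zfp_MB028, GTATAAGCTGGTCCA for Gm21411, ATATGGAATGGAGAG for Zfp_MB026 and TGATACGTCCTAGGC for Zfp_MB005, beside those of Zfp_MB037, Zfp_MB016 and Zfp_MB036, which contain ambiguous bases. The study derived these motifs from the same peaks, so a motif in a peak is no independent evidence of binding.

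A second, shorter provirus on chromosome 9 is one the study displayed. The study displayed it as an element of the IAPEz family, and no repeat annotation was used here to name the others. It lies on the plus strand of an intron of the lncRNA gene Gm47034, with LTRs at chr9:11554049-11554384 and chr9:11557327-11557662 (336 bp, 99.7% identical) and an internal region of 2942 bp. Positions 41 to 671 of its internal region aligned to positions 12 to 640 of the long internal region at 97.5% identity, and positions 1140 to 2940 aligned to positions 4665 to 6468 at 96.4% identity. The stretch of the long copy between these alignments, which holds the second Zfp_MB037 site and the Zfp_MB026 site, did not align to the short copy. The stretch of its LTR with the 3 matches, at chr9:11554204-11554261, has the same bases as that on chromosome 12, and the same holds for the printed Zfp_MB028 site at chr9:11555739-11555773.

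Zfp_MB028 contributed 620 members of its 1423 chromosome peaks (43.6%, interval 41.0 to 46.2%). Gm21411 contributed 40 of 90 (44.4%, 34.0 to 55.3%), Zfp_MB037 32 of 54 (59.3%, 45.0 to 72.4%) and Zfp_MB026 846 of 4105 (20.6%, 19.4 to 21.9%). Among the peaks of the other 35 lists, 922 of 11963 (7.71%) met the same distance rule, with shares per list of 1.85 to 25.5% and a median of 8.54%. The rule itself set the members apart by this distance, so nothing is read from the gap between these shares. A further Zfp_MB028 peak, on an unplaced scaffold, met the rule and was left out, since sequence and genes were needed.

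The members formed 2976 pairs with 2071 of the 7340 chromosome summits of the LTR lists (28.2%). Zfp_MB016 was a partner of 1476 members (96.0%) and the sole partner list of 1180. Zfp_MB005 was a partner of 228 members (14.8%) and Zfp_MB036 of 199 (12.9%), and 65 members (4.23%) had all 3. Gm21411 members had a Zfp_MB005 partner in 17 of 40 cases (42.5%), against 110 of 620 (17.7%) for Zfp_MB028, 100 of 846 (11.8%) for Zfp_MB026 and 1 of 32 for Zfp_MB037. No Zfp_MB037 member had a Zfp_MB036 partner. The number of members rests on Zfp_MB016, which has 6170 chromosome peaks beside 746 for Zfp_MB005 and 424 for Zfp_MB036: without its library 358 members were left, against 1501 without Zfp_MB005 and 1517 without Zfp_MB036. With partners limited to the batch of the member, 1444 members were left and none of Zfp_MB037.

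At the limits of the rule the distances ran on without a gap. The 2 members nearest to the lower limit had their closest partner at 513 bp (Zfp_MB037, fold 12.5) and 535 bp (Zfp_MB026, fold 13.7), and the 2 just outside it lay at 475 and 497 bp (Zfp_MB026, folds 10.0047 and 11.4). At the upper limit, members lay at 7940 and 7958 bp (Zfp_MB026, folds 18.04 and 31.4) and peaks just outside at 8025 and 8098 bp (Zfp_MB026, folds 43.3 and 32.8).

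The 200 bp window centred on each summit was compared with the internal regions and LTRs of both proviruses (a match was 100 bp or more at 80% identity or more). The lists were chosen with earlier results known, and the long provirus was picked at peaks of these lists. The shares below are therefore a description. Of all members, 1276 of 1538 (83.0%, 81.0 to 84.8%) aligned to an internal region, against 900 of 4134 other peaks of the same lists (21.8%, 20.5 to 23.1%). The share was 96.0% (595 of 620) in Zfp_MB028 members and 52.8% (424 of 803) in its other peaks. It was 87.5% (35 of 40) in Gm21411 members and 4.0% (2 of 50) in its other peaks, 81.2% (26 of 32) in Zfp_MB037 members and 40.9% (9 of 22) in its other peaks, and 73.3% (620 of 846) in Zfp_MB026 members and 14.3% (465 of 3259) in its other peaks. The intervals of members and other peaks did not overlap for 3 of the lists, while those of Zfp_MB037 (63.56 to 92.8% and 20.7 to 63.65%) overlapped at their ends. Copies of a repeat are not independent, so this overlap is no test. The windows of Zfp_MB037 members were more distant from the 2 proviruses: with 90% identity in place of 80%, 9.38% of them aligned. This value covers the window alone and not the rest of the copy.

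Most members, but not all, had windows that go with the names of the LTR and internal lists. A member with an internal window and a partner summit whose own window aligned to the LTR was found 1256 times (81.7% of members), in 902 loci. In 846 members (55.0%, 52.5 to 57.5%), spread over 591 loci, such LTR summits lay on both sides, and these are the candidate IAP proviruses bound at both LTRs and in between. Among partner summits, the window aligned to the LTR for 1488 of 1685 Zfp_MB016 summits (88.3%), against 1665 of its 4485 other summits (37.1%). The share was 84.6% (165 of 195) for Zfp_MB005 partners, against 42.1% (232 of 551) for its other summits, and 85.9% (164 of 191) for Zfp_MB036 partners, against 24.0% (56 of 233) for its other summits. The remaining 282 members lacked the internal match, an LTR match at the partner, or both.

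The exact motif gave much the same split. It lay in the window of 583 of 620 Zfp_MB028 members (94.0%, 91.9 to 95.8%), against 417 of its 803 other peaks (51.9%, 48.4 to 55.4%). In Gm21411 it lay in 34 of 40 members (85.0%), against 2 of 50 other peaks (4.0%). In Zfp_MB037 it lay in 25 of 32 members (78.1%), against 9 of 22 other peaks (40.9%), and in Zfp_MB026 in 588 of 846 members (69.5%), against 392 of 3259 other peaks (12.03%). In windows of the same length from the other 35 lists, the motifs of Zfp_MB028, Gm21411, Zfp_MB026, Zfp_MB016 and Zfp_MB036 were each found in 1 of 11963 (0.00836%), that of Zfp_MB005 in none, which allows a share of up to 0.0308%, and that of Zfp_MB037 in 107 (0.894%). Where present, the motif lay close to the summit, at a median of 12 bp in Zfp_MB028 members, 22.5 bp in Gm21411, 20 bp in Zfp_MB037 and 15 bp in Zfp_MB026.

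The motif strand served to orient 1230 members along the provirus. Of these, 1226 could also be oriented by alignment, and the strand was the same in 1226 of 1226. Both readings use the same window and the same proviruses, in which each motif has 1 strand. Their sameness is therefore largely set in advance and is no independent check of the orientation. Along the long internal region, Zfp_MB037 summits had a median position of 802 (quartiles 777 and 873, n = 26), with 3 near the first of its sites and 23 between positions 500 and 1500. Zfp_MB026 summits had a median position of 1194 (quartiles 1184 and 1201, n = 619). Zfp_MB028 summits had a median position of 4897 (quartiles 4885 and 4909, n = 595) and Gm21411 summits of 4899 (quartiles 4880 and 4925, n = 35). Most summits of a list thus gathered at 1 place of the internal region. Exceptions were the 3 Zfp_MB037 summits near its first site and 6 of the 619 Zfp_MB026 summits, which aligned at positions 5190 to 5223. In the LTR, the partner summits had median positions of 174 for Zfp_MB016, 181.5 for Zfp_MB005 and 212 for Zfp_MB036, whose motif also lies last.

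**Figure D1:**
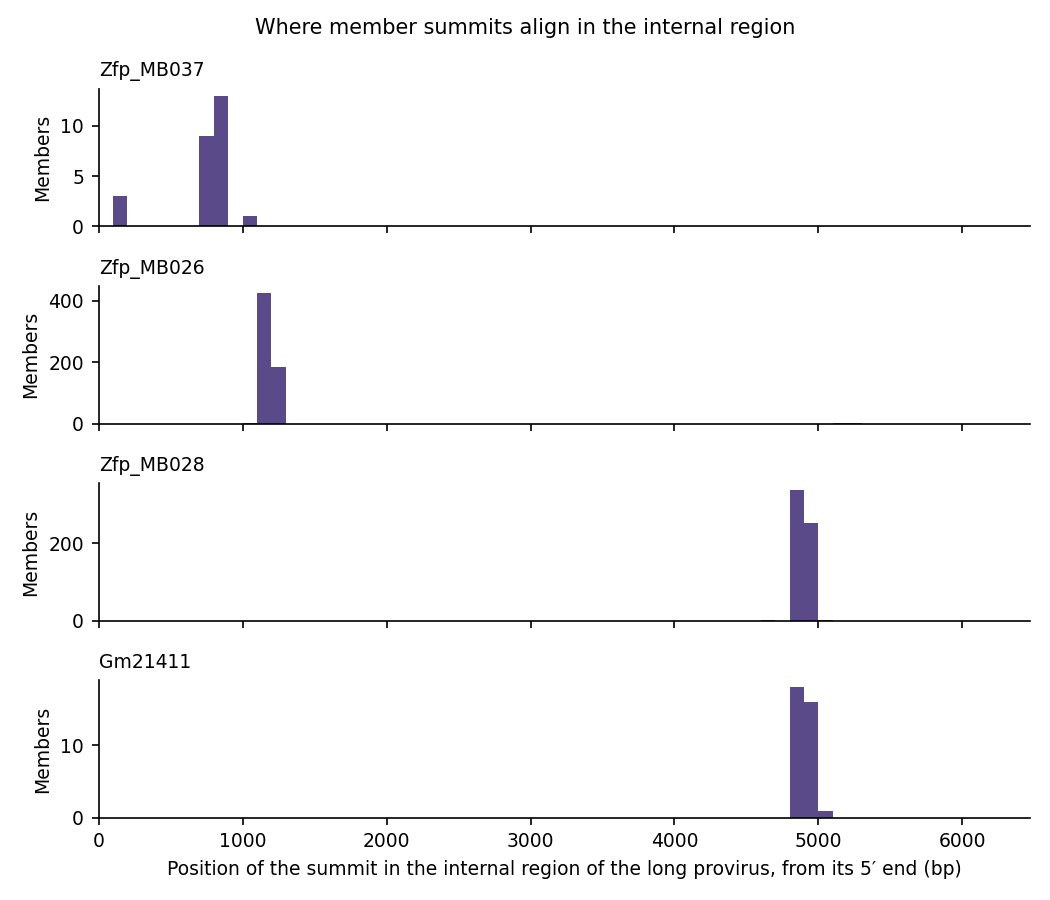
Histograms of the summit position (x axis, bp from the 5′ end of the internal region of the long provirus, bins of 100 bp) of members whose window aligned there, with the number of members on the y axis, for each internal list. Zfp_MB037 and Zfp_MB026 summits lie near the 5′ end (medians 802 and 1194), apart from 6 Zfp_MB026 summits beyond position 5000, and those of Zfp_MB028 and Gm21411 towards the 3′ end (medians 4897 and 4899).

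These positions returned in the distances to the nearest LTR-binder summit on each side. Zfp_MB028 members had that summit on the 3′ side at a median of 1728 bp (interval 1724 to 1731 bp, n = 527), and 517 of the 527 (98.1%) lay at 1000 to 2000 bp. On the 5′ side the median was 4479 bp with quartiles of 2065 and 5016 bp (n = 472), of which 228 (48.3%) lay at 4500 to 5500 bp and 102 (21.6%) at 1000 to 2000 bp. This 5′ median was 2630 bp with an upper limit of 5000 bp and 2941 bp with a fold of 15 or more in all 7 lists. The distance to the 3′ side was nearly constant and that to the 5′ side was not.

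Gm21411 members had the 3′ summit at a median of 1731 bp (quartiles 1713 and 1749 bp, n = 31). Their 5′ summit lay at a median of 1863.5 bp (quartiles 1691 and 2852 bp, n = 30), nearer than for Zfp_MB028, and 16 of 30 (53.3%) lay at 1000 to 2000 bp, against 21.6% for Zfp_MB028.

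Zfp_MB026 members showed the reverse arrangement. Their 5′ summit lay at a median of 1302 bp (interval 1297 to 1312 bp, n = 465), with 450 of 465 (96.8%) at 1000 to 2000 bp. Their 3′ summit lay at a median of 5399.5 bp (quartiles 3263 and 5439 bp, n = 518), with 328 (63.3%) at 4500 to 5500 bp, and its median was 2946.5 bp with an upper limit of 5000 bp. Zfp_MB037 members had the 5′ summit at a median of 860 bp (quartiles 834.5 and 910 bp, n = 20) and the 3′ summit at a median of 3324.5 bp (quartiles 2086 and 5794 bp, n = 22). Summits nearer than 500 bp did not enter these distances. Such a summit lay beside 3 of 32 Zfp_MB037 members and 65 of 846 Zfp_MB026 members. For Zfp_MB037, the median position of the 3′ summit depended on the settings. This 3′ median moved to 2116 bp with an upper limit of 5000 bp, 5788 bp with a fold of 15 or more and 1988 bp, from 1 member, without the Zfp_MB016 library.

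**Figure D2:**
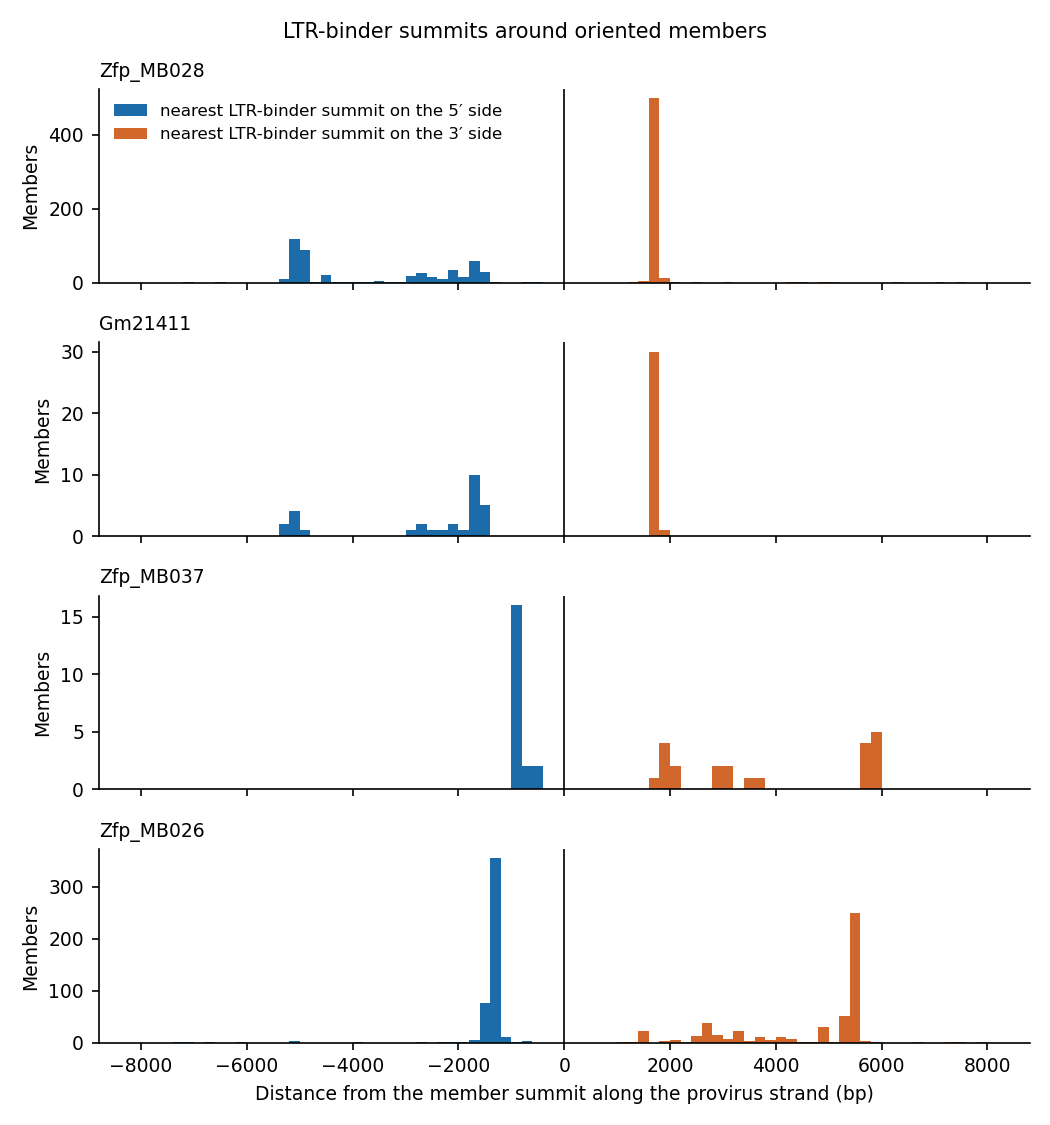
Histograms of the distance (x axis, bp, bins of 200 bp) from each oriented member at 0 to the nearest LTR-binder summit on its 5′ side (negative values, blue) and on its 3′ side (positive values, orange), with the number of members on the y axis. Zfp_MB028 and Gm21411 have a single narrow 3′ peak (medians 1728 and 1731 bp), Zfp_MB037 and Zfp_MB026 a single narrow 5′ peak (medians 860 and 1302 bp). Summits nearer than 500 bp were outside the rule and are not shown.

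In loci with 1 oriented member of each list on the same strand, Zfp_MB028 lay downstream of Zfp_MB026 in 259 of 259 loci, at a median of 3697 bp (interval 3693 to 3703 bp). It lay downstream of Zfp_MB037 in 5 of 5 loci, at a median of 4081 bp. Zfp_MB028 and Gm21411 had no such order: over 33 loci their summits differed by a median of 0 bp and by at most 70 bp.

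Partner summits flanked 888 of the 1538 members (57.7%, 55.2 to 60.2%). The share was 68.2% (423 of 620) in Zfp_MB028, 70.0% (28 of 40) in Gm21411, 65.6% (21 of 32) in Zfp_MB037 and 49.2% (416 of 846) in Zfp_MB026. The distance between the flanking summits fell into a short and a long class around Zfp_MB028. In 220 of its 423 flanked members (52.01%) the flanking summits were 6000 to 7500 bp apart, in 126 (29.8%) 3000 to 4000 bp and in 70 in between, as in the plot of locus spans. The long and the short provirus printed above have 6807 and 3278 bp between the starts of their LTRs. Around Zfp_MB026 the long class held 271 of 416 flanked members (65.1%) and the short class 51 (12.3%), while around Gm21411 the long class held 8 of 28 (28.6%) and the short class 17 (60.7%).

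A Zfp_MB026 summit went with the long class. Between the flanking summits of Zfp_MB028 members, and over 500 bp from each, a Zfp_MB026 summit was listed in 182 of 220 long spans (82.7%, 77.1 to 87.5%), against 18 of 70 intermediate spans (25.7%, 16.0 to 37.6%) and 9 of 126 short spans (7.14%, 3.32 to 13.1%). The Zfp_MB026 motif was present in 205 long spans (93.2%), against 19 intermediate (27.1%) and 7 short spans (5.56%). Spans with the motif had the summit in 175 of 205 long, 17 of 19 intermediate and 7 of 7 short cases, while spans without the motif had it in 7 of 15 long, 1 of 51 intermediate and 2 of 119 short cases.

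**Figure D3:**
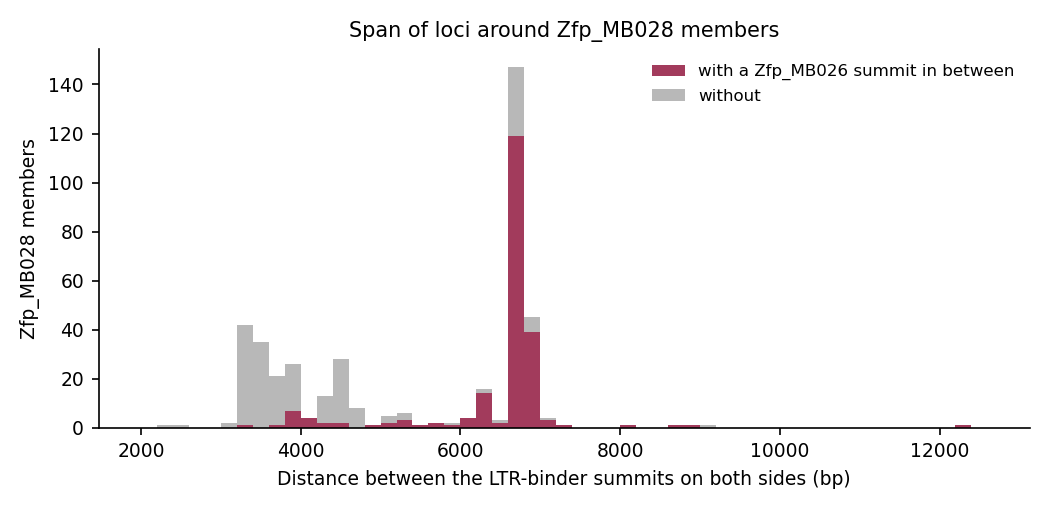
Distance in bp between the nearest LTR-binder summits on both sides of 423 Zfp_MB028 members (x axis, bins of 200 bp) against the number of members (y axis), stacked by whether a Zfp_MB026 summit lies in between. The long spans mostly hold such a summit (182 of 220 at 6000 to 7500 bp), the short ones mostly do not (9 of 126 at 3000 to 4000 bp).

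The LTR lists and folds also varied with the span around Zfp_MB028. Zfp_MB005 partners were listed for 25 of 220 members with long spans (11.4%, 7.49 to 16.3%), 13 of 70 with intermediate spans (18.6%, 10.3 to 29.7%) and 47 of 126 with short spans (37.3%, 28.9 to 46.4%). Zfp_MB036 went the other way, with 53 of 220 (24.1%, 18.6 to 30.3%) in long, 16 of 70 (22.9%, 13.7 to 34.4%) in intermediate and 14 of 126 (11.1%, 6.21 to 17.9%) in short spans. Zfp_MB016 was a partner in 98.2% of long (95.4 to 99.5%), 85.7% of intermediate (75.3 to 92.9%) and 98.4% of short spans (94.4 to 99.8%). Gm21411 shared the locus in 8 of the long (3.64%), 3 of the intermediate (4.29%) and 17 of the short spans (13.5%). The median fold of Zfp_MB028 itself was 14.4 (quartiles 12.1 and 18.4) in long spans, 14.4 (quartiles 12.7 and 19.5) in intermediate spans and 20.7 (quartiles 14.0 and 29.1) in short spans.

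Joined by the pairs of the rule, the members and their partners made 1109 loci. Only 902 of them held a member with an internal window and a partner with an LTR window. The combinations below are counted over all 1109 and so include loci that are not such candidates. Among Zfp_MB026 members, 234 of 846 lacked the internal match, the LTR match at the partner, or both. Zfp_MB026 was the sole internal list of 470 loci (42.4%), Zfp_MB028 of 276 (24.9%), and both together without another occupied 291 (26.2%). Gm21411 was never the sole internal list: its 40 loci all held Zfp_MB028, in 14 cases with Zfp_MB026. Of the 32 loci with Zfp_MB037, 22 held Zfp_MB026, 7 held Zfp_MB028 as well and 10 held neither. On the LTR side, Zfp_MB016 alone accounted for 873 loci (78.7%), Zfp_MB016 with Zfp_MB005 for 89, Zfp_MB016 with Zfp_MB036 for 68 and all 3 for 27. No locus held all 4 internal lists or all 7 lists, and 5 loci held 6. The split between sole and joint internal lists depended on the settings. More than 1 internal list was found in 353 of 1109 loci, and in 357 of 1138 with an upper limit of 10000 bp. It was found in 197 of 1120 loci with an upper limit of 5000 bp and in 109 of 613 with a fold of 15 or more in all 7 lists.

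**Figure D4:**
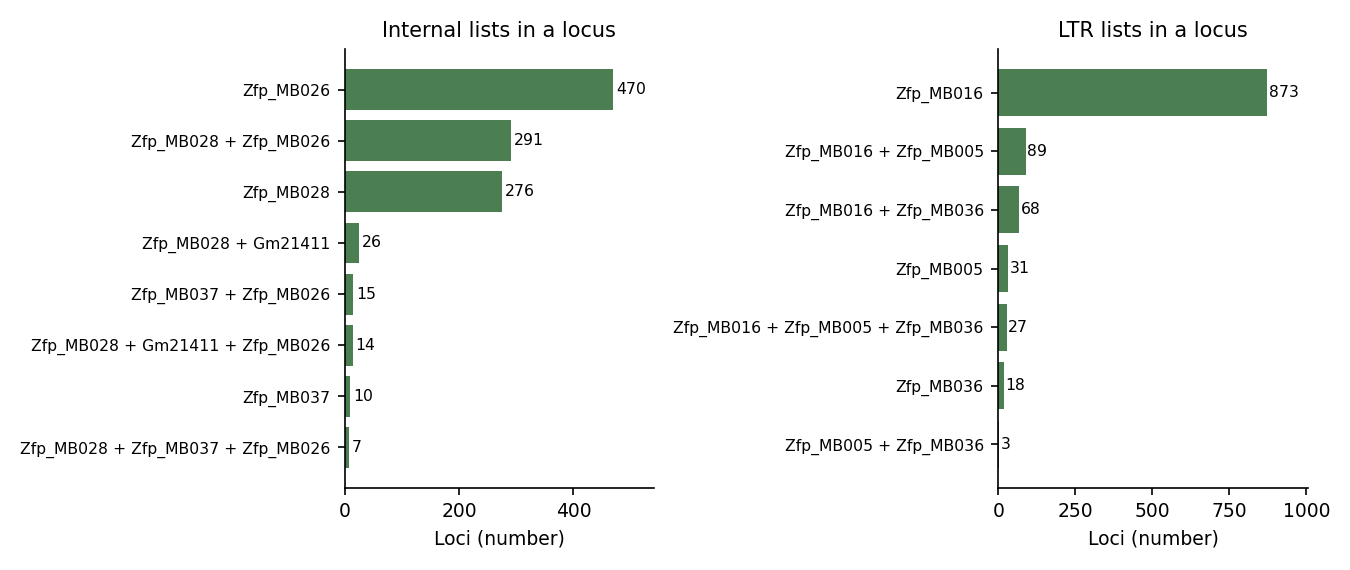
Number of loci (x axis) for each combination of internal lists (left) and of LTR lists (right), over all 1109 loci. Of these, 902 hold a member with an internal window and a partner with an LTR window. Zfp_MB026 and Zfp_MB028, alone or together, make up most loci (470, 291 and 276), and Zfp_MB016 is the sole LTR list in 873.

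Every Gm21411 member had a Zfp_MB028 summit within 100 bp, at a median of 13.5 bp and at most 70 bp. The share among the other 50 Gm21411 peaks was not computed, so this overlap is not read as particular to the members. The fold of Zfp_MB028 was higher than that of Gm21411 at 40 of 40 of these places, with medians of 38.2 and 11.9 in libraries of 1 batch. The 579 Zfp_MB028 members in loci without Gm21411 had a median fold of 14.4 (10.0327 to 47.5), and those beside Gm21411 ranged over 23.5 to 89.4. These ranges overlapped. With 1 library each, a difference between the proteins and one between their libraries cannot be told apart.

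Some Zfp_MB026 members went against the name of an internal binder. Of 846, 620 windows aligned to the internal region, 55 (6.50%) aligned to the LTR alone and 171 (20.2%) to neither. The 55 at the LTR carried no copy of the Zfp_MB026 motif and had a Zfp_MB016 summit within 200 bp in 50 cases, a Zfp_MB036 summit in 35 and a Zfp_MB005 summit in 33. They lay in 40 loci, of which 30 also held a Zfp_MB028 member. The 171 windows that aligned to neither also lacked the motif, and 55 of them (32.2%, 25.2 to 39.7%) lay in a promoter or an exon, against 7 of 620 (1.13%, 0.455 to 2.31%) of the internal ones. Their median fold was 16.0, that of the LTR ones 15.5 and that of the internal ones 30.8 (quartiles 17.2 and 45.6). No Zfp_MB028 or Gm21411 window aligned to the LTR (0 of 620 and 0 of 40, upper bounds 0.593% and 8.81%).

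The median fold was 23.8 (interval 22.1 to 26.0) in Zfp_MB026 members and 16.2 (15.8 to 16.6) in its other peaks. In Zfp_MB028 it was 14.8 (14.4 to 15.7) in members and 13.0 (12.7 to 13.4) in its other peaks. In Gm21411 it was 11.9 (11.1 to 13.3) in members and 12.5 (11.6 to 14.7) in its other peaks, and in Zfp_MB037 11.1 (10.7 to 12.5) and 11.1 (10.3 to 12.2), so that these intervals overlapped. The highest folds of Zfp_MB028 (193), Gm21411 (72.1), Zfp_MB037 (21.4) and Zfp_MB026 (370) were those of other peaks. Lists hold only peaks with a fold of 10 or more, which bounds every median from below.

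**Figure D5:**
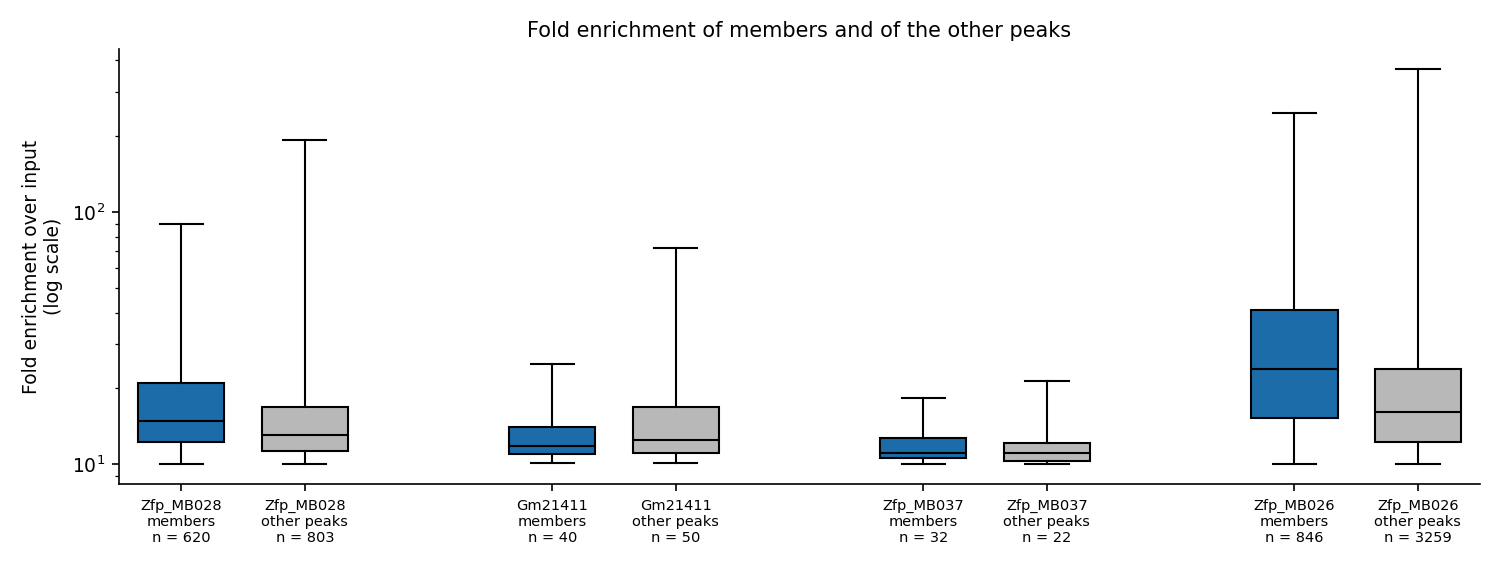
Fold enrichment over input (y axis, log scale) of members (blue) and of the other peaks of the same list (grey) for the 4 internal lists, with the number of peaks under each box. Boxes show the quartiles and median and whiskers the full range. The median of Zfp_MB026 members (23.8) is above that of its other peaks (16.2), and the medians of Gm21411 and Zfp_MB037 members (11.9 and 11.1) are close to those of their other peaks (12.5 and 11.1).

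The folds at the 2 LTRs around a member were mostly within 2-fold of each other. Both summits of a pair had to pass the fold cutoff of 10, and Zfp_MB016 partners had quartiles of only 13.7 and 25.8. The share among summits of different loci was not computed, so the likeness is not read as particular to a pair. For Zfp_MB016, the fold at the 5′ LTR and that at the 3′ LTR differed by at most 2-fold in 519 of 583 pairs (89.0%), with medians of 17.9 and 19.4 and a median log2 ratio of -0.13 (interval -0.18 to -0.06). For Zfp_MB005 it was 39 of 43 pairs (90.7%) and for Zfp_MB036 64 of 71 (90.1%), with median log2 ratios of 0.05 (-0.16 to 0.26) and 0.08 (-0.11 to 0.28). These LTRs are nearly the same sequence. Where both LTR copies around a Zfp_MB028 or Zfp_MB026 member had a summit, their median identity was 99.7% (604 pairs), and 88.7% of the pairs reached 99%. Since 1 of several equally good alignments was retained at random, binding at 1 LTR of such a pair and at both cannot be told apart, and the same holds between near-identical proviruses.

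LTR sequence without a listed summit was common on the open side of the other 650 members. It was found there for 360 (55.4%, 51.5 to 59.3%), for 157 of 197 in Zfp_MB028 (79.7%) and 190 of 430 in Zfp_MB026 (44.2%). Gm21411 had it in 5 of 12 cases and Zfp_MB037 in 8 of 11. On the side with the partner summit, LTR sequence was found for 493 of the 650 (75.8%, 72.4 to 79.1%). That side held it in 178 of 197 cases (90.4%) for Zfp_MB028 and 298 of 430 (69.3%) for Zfp_MB026. It did so in 7 of 12 cases for Gm21411 and 10 of 11 for Zfp_MB037. Members with partners on both sides had LTR sequence on both in 876 of 888 cases (98.6%). Of the other 4134 peaks of the internal lists, 824 (19.9%) were flanked by LTR sequence on both sides with no listed summit at 500 to 8000 bp, among them 393 of 803 Zfp_MB028 peaks (48.9%).

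Of 1906 LTR copies at 500 to 8000 bp from a member, 1583 had a summit of an LTR list and 323 had none. Since members were chosen for such a summit, mostly of Zfp_MB016, at this distance, the shares of copies with a summit are largely set by that choice and are given as a description. Copies with a summit carried the Zfp_MB016 motif in 1090 cases (68.9%, 66.5 to 71.1%), against 163 (50.5%, 44.9 to 56.0%) of those without, and the Zfp_MB005 motif in 200 (12.6%), against 6 (1.86%). The Zfp_MB036 motif was about as frequent in both (17.1% and 14.9%, intervals overlapping). By its own motif, Zfp_MB016 had a summit in 1090 of 1253 copies with its motif (87.0%) and in 434 of 653 without (66.5%). Zfp_MB005 had one in 94 of 206 copies with its motif (45.6%) and in 80 of 1700 without (4.71%), and Zfp_MB036 in 139 of 319 (43.6%) and 33 of 1587 (2.08%).

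Counted once per locus at the member with the highest fold, 684 of 1109 loci (61.7%) lay between genes, 347 (31.3%) in introns, 40 (3.61%) within 1000 bp of a transcription start and 38 (3.43%) in exons. These shares also cover the loci without an internal window and a partner with an LTR window. In introns of protein-coding genes, the provirus lay antisense to the gene in 126 of 154 oriented loci (81.8%, 74.8 to 87.6%). This orientation was not particular to the members: it was found for 98 of 111 Zfp_MB028 members (88.3%, 80.8 to 93.6%) and 75 of 89 of its other oriented peaks in introns (84.3%, 75.02 to 91.1%), and for 71 of 93 Zfp_MB026 members (76.3%, 66.4 to 84.5%) and 59 of 70 of its other peaks (84.3%, 73.6 to 91.9%).

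The provirus on chromosome 9 had summits of 5 lists. At its 5′ LTR the folds were 61.2 for Zfp_MB016, 20.4 for Zfp_MB005, 58.9 for Zfp_MB036 and 13.2 for Zfp_MB026. At its 3′ LTR they were 66.3, 11.7, 47.3 and 13.8 in the same order. Zfp_MB028 had a fold of 17.2 in the internal region, and no Gm21411 summit was listed. Both Zfp_MB026 summits here lie on an LTR, and the internal region of this copy holds no Zfp_MB026 motif. Folds of Zfp_MB005 and Zfp_MB036 are relative to other inputs than the rest.

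The long provirus on chromosome 12 had folds of 74.6 for Zfp_MB016, 14.9 for Zfp_MB005 and 40.9 for Zfp_MB036 at the 5′ LTR and 43.9, 16.6 and 37.7 at the 3′ LTR. In the internal region Zfp_MB026 had a fold of 16.9, Zfp_MB028 of 27.3 and Gm21411 of 11.9. A second Zfp_MB026 summit, of 17.2, lay on the 5′ LTR.

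The other loci with 6 lists lay in introns. The locus in Map3k4, a mitogen-activated protein kinase kinase kinase, spans chr17:12502724-12506782 and had a Zfp_MB028 fold of 60.2, a Gm21411 fold of 15.6 and Zfp_MB026 folds of 21.6, 15.9 and 27.1 at its 5′ LTR, in its internal region and at its 3′ LTR. The locus in Tmem135, which encodes a membrane protein of peroxisomes and mitochondria, spans chr7:88922488-88926035 and had a Zfp_MB028 fold of 47.2, a Gm21411 fold of 14.8 and Zfp_MB026 folds of 18.1 and 16.1, both at an LTR. In the locus in Usp24, a ubiquitin-specific protease gene, the Zfp_MB016 folds of 207 and 127 were joined by folds of 92.6 and 67.8 for Zfp_MB036 and 43.1 for Zfp_MB028. Map3k4 and Tmem135 are on the minus strand with the provirus on the plus strand, and Usp24 is on the plus strand with the provirus on the minus strand. The last of the loci lies in the lncRNA gene Gm41664, with a Zfp_MB028 fold of 63.6 and a Gm21411 fold of 18.2.

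Loci with 5 lists were similar in layout. The intronic one in Cfap61, a gene of cilia and flagella, had Zfp_MB026 folds of 13.2 and 17.1 at its LTRs and 69.0 in its internal region, with a Zfp_MB028 fold of 24.5. The one in the lncRNA gene Gm65601 had Zfp_MB016 folds of 108 and 132, and its Zfp_MB028 summit (26.1) and both Zfp_MB026 summits (20.3 and 29.7) lacked the exact motif. The other 3 loci with 5 lists among those ranked highest by summed fold, lay between genes on chromosomes 2, 14 and 17. Their members with the highest fold had no annotated gene within 10000 bp, while other members lay 8037 bp from Slain1 (chromosome 14, Zfp_MB026) and 6310 bp from Gm3507 (chromosome 17, Zfp_MB028).

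Other members with high folds lay in loci with fewer lists. Zfp_MB028 reached 89.4 in an intron of Golga3, which encodes a Golgi matrix protein, where Gm21411 had its highest member fold, 25.1. Zfp_MB028 reached 77.5 and Gm21411 19.5 in an intron of Zfp462, a zinc finger gene, where the sole partner was a Zfp_MB016 summit at the other end of a locus of 7600 bp and no motif lay in either window. The third Gm21411 member, of 18.2, lay in the lncRNA gene Gm45335 with a Zfp_MB028 fold of 62.9. Zfp_MB037 members reached 18.4 in the pseudogene Gm13768, 16.5 in the lncRNA gene Gm66556 and 16.3 in the pseudogene Gm47873, the first and the last with Zfp_MB026 beside them at 24.6 and 46.9. Zfp_MB026 members reached 247 in an intron of Dym, a Golgi-associated gene, without the motif, 243 at 6183 bp from the neuropeptide Y receptor gene Npy6r and 241 at 3148 bp from the lncRNA gene Gm54314, both with the motif.

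Loci with a member in an exon or promoter were led by Atoh7, a transcription factor gene of retinal ganglion cell development. Its promoter held a Zfp_MB026 fold of 220 without the motif, in 1 locus with a provirus that had folds of 27.4 for Zfp_MB026 and 21.5 for Zfp_MB028. The next by fold were Zfp_MB026 members of 200 in an exon of the lncRNA gene Gm2011, 196 and 145 at the gene Nopchap1 (a chaperone gene of snoRNP assembly), 159 near the start of the lncRNA gene Gm72853 and 62.2 in an exon of Vangl1, a planar cell polarity gene. Of these, the members at Gm2011, Gm72853 and the second at Nopchap1 held the motif, and those at Atoh7, Vangl1 and the first at Nopchap1 did not. The others were Gm44215 (Zfp_MB026, 50.8), Gm64358 (Zfp_MB028, 44.1), P3h4, of the prolyl 3-hydroxylase family (Zfp_MB028, 39.3), and Gm21781 (Zfp_MB026, 39.3).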

How the data were processed

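Peak lists of KZFP ChIP-seq libraries (1 library per KZFP, 42 lists) were used. The authors aligned the reads with BWA to GRCm39, placed a read with several equally good alignments on 1 of them at random, called peaks with MACS2 2.2.7.1 against the mixed input of the batch, removed peaks that overlap those of empty vector controls and retained peaks at a q cutoff of 0.01 with a fold of 10 or more (5 for lists left with fewer than 20 peaks, none of them among the 7 lists paired here). SAMtools 1.19 is also named in the submitters' processing notes. The deposited fold enrichment is a ratio over input. The authors also deposited -log10 p and -log10 q values and a display score, which entered no result. The lists give no read counts, so the depth behind a fold is not given here.

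Members and lists were chosen with earlier results of these data known. Summits were paired within 500 to 8000 bp and joined into loci by single linkage, each internal peak being compared with every LTR-list summit. Summit windows of 200 bp from GRCm39 were aligned with blastn 2.17.0 to 2 proviruses (100 bp or more at 80% identity or more). LTR copies were blastn matches of the chromosome 9 LTR of 200 bp or more at 75% identity or more. The long provirus was the locus with most lists and the highest summed fold that had direct repeats and a Zfp_MB028 member, with chromosome 18 left out. Motifs came from the study's table. Genes came from GENCODE on GRCm39. Peaks on scaffolds were left out. Named loci are the displayed provirus on chromosome 9, the 3 members with the highest fold per internal list, the 10 loci with most lists and the 10 exon or promoter loci with the highest fold. Copies of a repeat are not independent, so no test was made over peaks, and the code for pairs and loci was tested on simulated data. Alternatives changed the distance limits, the fold cutoff, the position used, the partner libraries, the motif and alignment settings.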

Additional observations from a re-analysis of the deposited data

How the results depend on the processing

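No paired analysis was possible because each KZFP has 1 library and no test was made between groups. Leaving out 1 LTR library at a time gave 358 to 1517 members, 236 to 1091 loci, Zfp_MB028 distances to the 3′ summit of 1728 to 1750 bp, Zfp_MB026 distances to the 5′ summit of 1302 to 1348 bp, motif shares of 74.3 to 80.5%, alignment shares of 78.2 to 83.5%, LTR sequence on the open side in 55.9 to 58.6%, Zfp_MB028 median folds of 14.8 to 17.4 and antisense shares of 81.5 to 86.4%, the library of Zfp_MB016 giving the values farthest from those reported. An upper limit of 5000 bp gave 84.1% with the motif, 87.3% aligned and LTR sequence on the open side in 22.9%, a share for which fewer bases were searched. A fold of 15 or more in all 7 lists gave 751 members, 613 loci, 1315 bp for Zfp_MB026, 85.2% with the motif, 88.3% aligned, 73.5% with LTR sequence and a Zfp_MB028 fold of 21.2. The middle of the peak in place of the summit gave 1656 bp for Zfp_MB028 and 1275 bp for Zfp_MB026, and LTR copies at 85% identity gave 42.6%. The cause of these shifts was otherwise not tested. Of 86 such values, 66 stayed within 1.5 times the count or inside the interval reported, and of 254 values for single lists, 201 did. Depth is not given, so a site without a listed peak cannot be called unbound.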

Other observations

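Peaks of 3 further lists met the distance rule in more than 20% of cases: 13 of 51 for Zfp600 (25.5%, 14.3 to 39.6%), 14 of 55 for Zfp_MB025 (25.5%, 14.7 to 39.0%) and 27 of 113 for Zfp980 (23.9%, 16.4 to 32.8%), all in batch 4. The loci were spread over all chromosomes, at 3.07 (chromosome 3) to 5.29 (chromosome 18) per 10 Mb outside chromosome Y, which held 3 loci, or 0.328 per 10 Mb.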
